A study of Mus musculus with 4 samples.

Results

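Histone genes were examined on 4 single-colour arrays, 1 for each of 4 subsets of mouse CD8 T cells. They were chosen by symbol: every non-control probe whose RefSeq gene carries a current symbol starting with H1f, H2ac, H2bc, H3c or H4c, or an older symbol starting with Hist1h, Hist2h, Hist3h or Hist4h. This gave 56 probes for 52 genes, out of 56605 probes on the array and 22911 genes that could be named, and 3 of the 56 probes were found through the older symbol alone. The 52 genes comprised 10 of linker histone H1, 14 of H2A, 12 of H2B, 7 of H3 and 9 of H4, and 24 further genes with such symbols in the reference had no probe named by a RefSeq accession. The label of replication-dependent genes did not hold for every one: H1f0, H1f7, H1f8 and H1f10 are linker variants made outside S phase or in germ cells. Counts and medians include these 4 where they pass the filter, unless stated otherwise.

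All cells came from PD-1-/- mice on the C57BL/6 background, 1 to 3 months old and given no treatment, whose spleens and lymph nodes were sorted for CD8 cells. Every subset carried that genotype, so no array shows cells with PD-1. P1 (CD44low CD62Lhigh) has the surface of naive cells and P2 (CD44high CD62Lhigh) that of central memory cells. P3 (CD44high CD62Llow) has the surface of effector or effector memory cells, and P4 (CD44low CD62Llow) is the less usual subset the series set out to characterise. Each subset was read on 1 array, so there is no replicate, no SD between samples and no test, and the labels do not state how many mice gave each sort. Array and subset cannot be told apart.

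Histones package DNA into nucleosomes, whose core is built of H2A, H2B, H3 and H4 while H1 binds the linker DNA between them. The genes studied here lie in clusters, mostly lack introns, and are transcribed in S phase, when each new stretch of DNA needs histones. Their mRNAs are the best known to end in a stem-loop in place of a poly(A) tail, although some members also make polyadenylated forms in cells that have left the cycle. Resting naive T cells divide little, and activated CD8 T cells divide fast. The labels name both random primers for the cDNA and a commercial labelling kit, and they do not state which of them primed the RNA read on the array.

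A level is the log2 processed signal of a gene's probe minus the 75th percentile of the array, so 0 is the 75th percentile itself. Levels are compared between arrays for the same probe, never between probes. A gene with several probes is represented by the one with the highest mean. The 75th percentile of signal lay between 453 and 799 units, highest on P3. Between 27827 and 30811 of 56605 probes per array were well above background, again with P3 highest. Repeated spots of a probe gave a pooled SD of 0.066 at levels of 0 or more, 0.11 between -3 and 0 and 0.22 below -3, on the log2 scale. Spot noise alone thus gives a difference between arrays a 95% half-width of 0.18, 0.29 and 0.61 in these ranges, with variation between mice, sorts and labelling not covered. Of the 52 histone genes, 51 were read by a single spot per array, so these half-widths apply to them.

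Of the 52 genes, 44 were well above background on all 4 arrays, 5 on some and 3 on none. The P3 array held the highest level of most of them. It was highest for 35 of the 44, or 79.5%, against 28.3% of all 11836 genes that passed this on every array. P2 was the lowest array for 29 of the 44, or 65.9%, against 21.1% of all such genes. P1 was highest for 6 histone genes, P4 for 2 and P2 for 1. The P3 count ran from 35 to 37, and the P2 count from 27 to 29, over 4 other ways of scaling or background correction. All these counts include gaps within spot noise. Among genes lowest on P2, P4 minus P2 was 0.0015 for H4c12, 0.005 for H2aw and 0.012 for H4c14. Among genes highest on P3, P4 minus P3 was -0.09 for H2ac13. Probes of near-identical genes, which may share targets, are counted as separate genes.

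**Figure D1:**
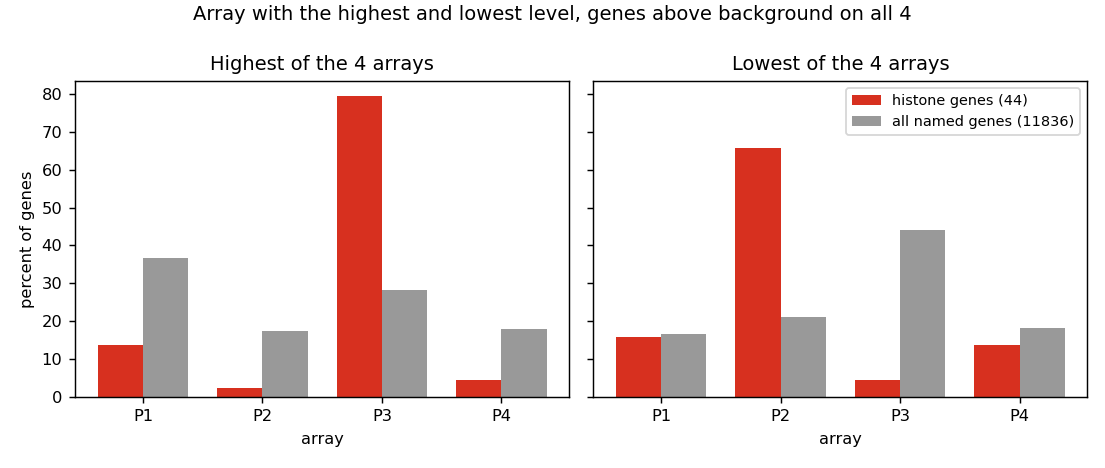
Percent of genes for which each array held the highest (left) or lowest (right) of the 4 levels, for 44 histone genes (red) and 11836 named genes (grey) well above background on all arrays. The histone bars stand at 79.5% for P3 as highest and at 65.9% for P2 as lowest, against 28.3% and 21.1% of all genes. Gaps within spot noise are counted too.

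Against P1, the median of the histone genes was higher on P3, slightly higher on P4 and slightly lower on P2. Of the 45 genes well above background on both P3 and P1, 11 were at least 2-fold higher on P3, where 7.93% of all such genes were, and 1 was at least 2-fold lower, against 6.37%. Their median difference was 0.58, beside -0.14 over all genes. On P4 against P1, 2 of 44 were at least 2-fold higher, against 3.36%, and 0 lower, against 0.92%. The P4 median was 0.16, beside -0.07 over all genes, and 26 of the 44 lay above 0, against 40.45% of all genes. On P2 against P1, 0 of 44 were at least 2-fold higher, against 3.25%, and 1 was lower, against 1.81%. The P2 median was -0.21, beside -0.06 over all genes, and 10 of the 44 lay above 0, against 38.6% of all genes. These comparisons share the P1 array. The gap was widest between P3 and P2, where 17 of 44 were at least 2-fold higher on P3, against 7.25% of all genes, and 0 lower, against 4.9%. With genes above background on at least 1 array of the pair, some of which pass only where they are high, the P3 counts were 12 higher and 2 lower of 49, with backgrounds of 12.4% and 7.11%. In the authors' value table they were 17 and 0 of 44. For P4 the same count gave 2 higher and 1 lower of 47, with backgrounds of 5.46% and 1.75%, and 2 and 0 in the authors' value table. For P2 against P1 it gave 0 higher and 2 lower of 46 (4.75% and 2.53% of all genes), and for P3 against P2 18 higher and 0 lower of 48 (10.5% and 5.69%).

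**Figure D2:**
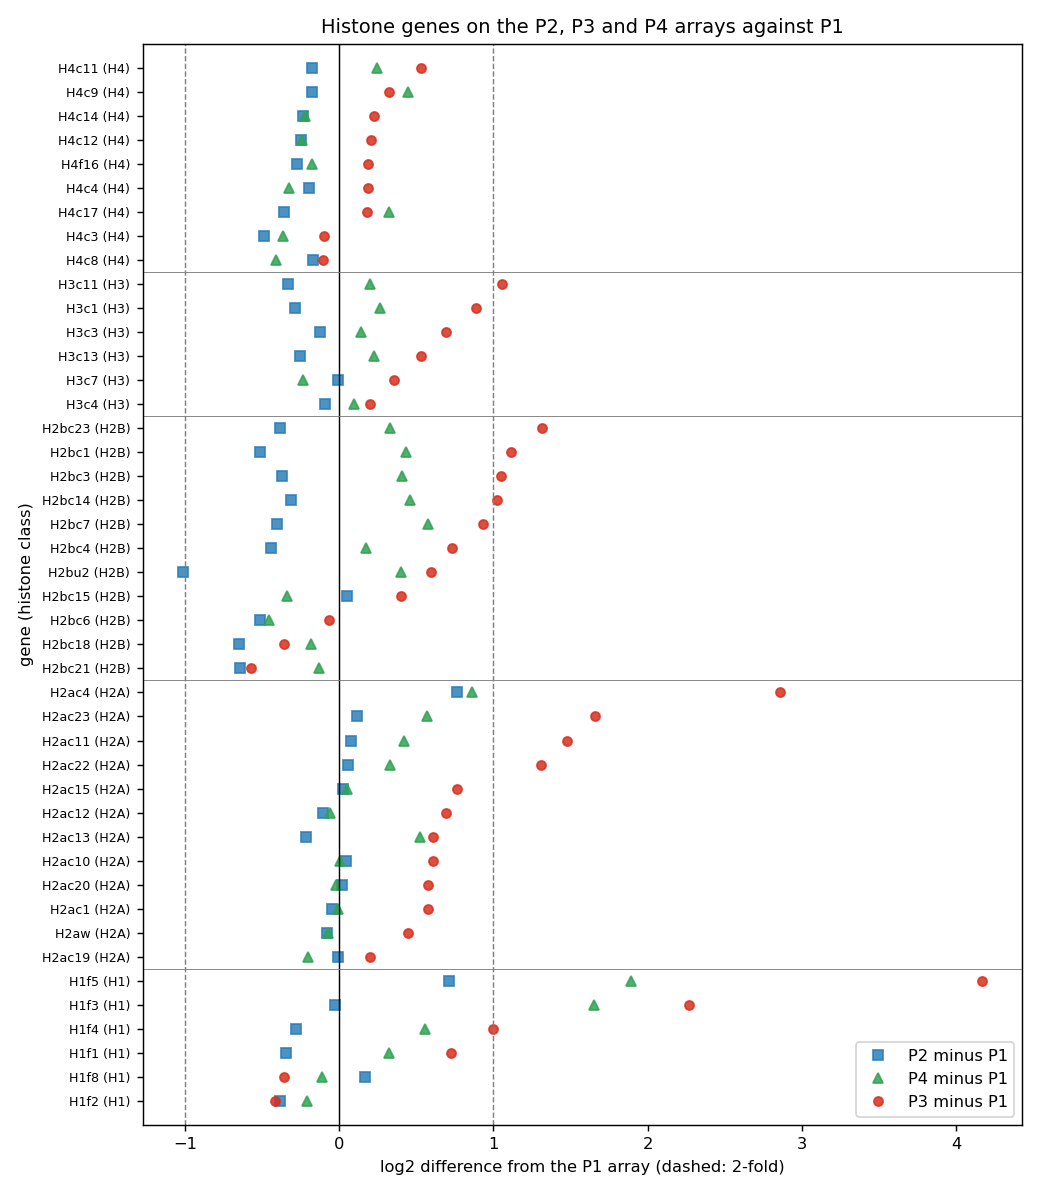
Log2 difference from the P1 array for each of the 44 histone genes well above background on all arrays, grouped by class, with P2 as squares, P4 as triangles and P3 as circles; dashed lines mark 2-fold. The P3 circle of H1f5 lies farthest right at 4.17, most P2 squares lie left of 0, and H4 genes stay within the dashed lines.

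The linker gene H1f5 was raised most on P3 against P1, ahead of the H2A gene H2ac4 (2.86) and the linker gene H1f3 (2.27). H1f5, which encodes linker histone H1.5 (older name Hist1h1b), stood at -2.79 on P1, -2.08 on P2, 1.38 on P3 and -0.90 on P4. P3 was the highest array and P1 the lowest, with P4 between P2 and P3. The gene was 18.0-fold higher on P3 than on P1 (difference 4.17) and 3.71-fold higher on P4 than on P1 (1.89). Its spot on the P4 array lay in a locally bright area, where neighbouring spots were also raised, and the part of this in the P4 value was not tested. H1f3, which encodes H1.3 (Hist1h1d), stood at -1.91, -1.94, 0.36 and -0.26 on P1 to P4. The arrays of the CD62Lhigh subsets P1 and P2 were alike within spot noise, and those of the CD62Llow subsets P3 and P4 were higher by 2.27 and 1.65 than P1. No bright area touched its spot.

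Other linker genes above background on all arrays differed less or the other way. H1f4, which encodes H1.4, stood at 1.43, 1.15, 2.43 and 1.99, so that P3 was 1.00 higher than P1 and P4 0.56 higher. H1f1 had the same order of arrays, at -2.51, -2.85, -1.78 and -2.19. H1f2, which encodes H1.2, went the other way at 1.89, 1.51, 1.48 and 1.69. It was lowest on P3 and P2 and highest on P1, a span of 0.42. The oocyte linker gene H1f8 gave signal on every array, at -1.99, -1.82, -2.35 and -2.10, a span of 0.53, with its P1 spot in a locally bright area.

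The sequences before the start of 3 genes with the largest P3 minus P1 difference, H1f5, H1f3 and H2ac4, are set beside that of H1f2, a replication-dependent linker gene that was lower on P3 than on P1. Each run is the 250 bases before the RefSeq start, on the strand of the gene, from RefSeq build GRCm38.p6. H1f5 is at chr13:21780626-21780875 on the minus strand, and the plus strand holds H1f3 at chr13:23554782-23555031, H2ac4 at chr13:23750838-23751087 and H1f2 at chr13:23738557-23738806. Capitals mark matches on either strand to the CCAAT box (CCAAT), the TATA box (TATAAA), the octamer (ATTTGCAT) and the H1 box (AAACACA).
H1f5: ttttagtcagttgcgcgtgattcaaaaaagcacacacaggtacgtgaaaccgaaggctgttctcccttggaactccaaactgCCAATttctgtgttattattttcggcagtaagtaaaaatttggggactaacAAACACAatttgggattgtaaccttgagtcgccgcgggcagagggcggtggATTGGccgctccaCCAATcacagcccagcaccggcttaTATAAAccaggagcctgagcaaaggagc
H1f3: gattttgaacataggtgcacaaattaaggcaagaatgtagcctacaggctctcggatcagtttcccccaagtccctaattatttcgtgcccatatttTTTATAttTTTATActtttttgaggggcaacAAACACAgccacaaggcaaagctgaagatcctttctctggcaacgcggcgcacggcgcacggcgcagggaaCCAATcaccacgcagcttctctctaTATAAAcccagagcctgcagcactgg
H2ac4: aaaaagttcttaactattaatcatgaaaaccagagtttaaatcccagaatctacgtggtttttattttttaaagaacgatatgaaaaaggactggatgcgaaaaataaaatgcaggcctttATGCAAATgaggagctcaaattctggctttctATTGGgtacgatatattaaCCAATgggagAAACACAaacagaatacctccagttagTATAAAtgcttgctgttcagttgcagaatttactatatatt
H1f2: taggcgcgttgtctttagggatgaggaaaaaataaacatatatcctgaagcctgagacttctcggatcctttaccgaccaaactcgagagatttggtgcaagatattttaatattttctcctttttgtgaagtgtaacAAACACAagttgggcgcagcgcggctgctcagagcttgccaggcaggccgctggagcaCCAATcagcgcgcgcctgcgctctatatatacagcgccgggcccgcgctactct

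All 4 runs held the letters of the H1 box and of a CCAAT box. In the 3 linker genes the CCAAT letters nearest the start began 53 bases before it in H1f5, 51 in H1f3 and 54 in H1f2. The letters TATAAA began 28 bases before the start in H1f5 and 26 in H1f3, and H2ac4 held them too. This window of H1f2 did not hold these exact letters, but it held the run tatatata near the start. The octamer was in H2ac4 alone of the 4, starting 129 bases before the start on the reverse strand.

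Promoter sequences were held in the RefSeq table for 47 of the 52 genes, in 48 entries. CCAAT was found in all 14 H2A, 11 H2B and 5 H3 entries, in 7 of 10 H1 entries and in 2 of 8 H4 entries, and in 33.8% of all 32851 promoters of the same length. The octamer was found in 5 of 11 H2B and 5 of 14 H2A entries and in 1.6% of all promoters; H2A and H2B genes often lie head to head, so that 1 stretch can serve both. The H1 box was found in 5 of 10 H1 entries and in 6.25% of all promoters. TATAAA was found in 21 of the 48 entries and in 12.4% of all promoters. A match is a run of letters and no shown binding site.

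Among H2A genes, 12 of 14 were well above background on all arrays, and P3 was highest for every one of the 12. H2ac4 (Hist1h2ab) differed most, at -0.18 on P1, 0.58 on P2, 2.68 on P3 and 0.68 on P4. P3 stood clear of the others, P2 and P4 were alike within spot noise, and P1 was lowest. The gene was 7.25-fold higher on P3 than on P1 (2.86). Against P1, P4 differed by 0.86 and P2 by 0.76, both short of 2-fold.

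H2ac11, H2ac22 and H2ac23 formed a second set. H2ac23 (Hist1h2ao) stood at 4.56, 4.67, 6.21 and 5.13 on P1 to P4, which put P3 1.66 above P1 and P4 0.57 above P1. H2ac11 stood at 4.88, 4.96, 6.36 and 5.30, and H2ac22 at 4.81, 4.86, 6.12 and 5.14. In all 3 the P1 and P2 arrays were alike within spot noise, P4 was a little higher and P3 highest.

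The probes of H2ac1, H2ac10, H2ac12, H2ac15 and H2ac20 were higher on P3 than on P1 by 0.57 to 0.76, and their P2 and P4 levels were each within 0.10 of P1. H2ac12 stood at 6.02, 5.92, 6.72 and 5.96. H2ac1 (Hist1h2aa), known as a testis gene, gave 6.04, 6.00, 6.62 and 6.04, nearly the same profile. H2ac19, of the Hist2 cluster, was the flattest at 5.99, 5.98, 6.18 and 5.78. H2A coding sequences are near-identical between genes, the sequence each probe reads was not used here, and which H2A gene a probe reports is therefore uncertain. The remaining members well above background on all arrays were H2ac13 (P3 minus P1 0.61, P4 minus P1 0.52) and H2aw (0.45 and -0.07). Without the H2A class, 8 of 36 histone genes above background on at least 1 array were at least 2-fold higher on P3 than on P1, against 12.4% of all genes at that filter. Among the 8, H3c8 passed the filter through P3 alone, so its difference is a bound.

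**Figure D3:**
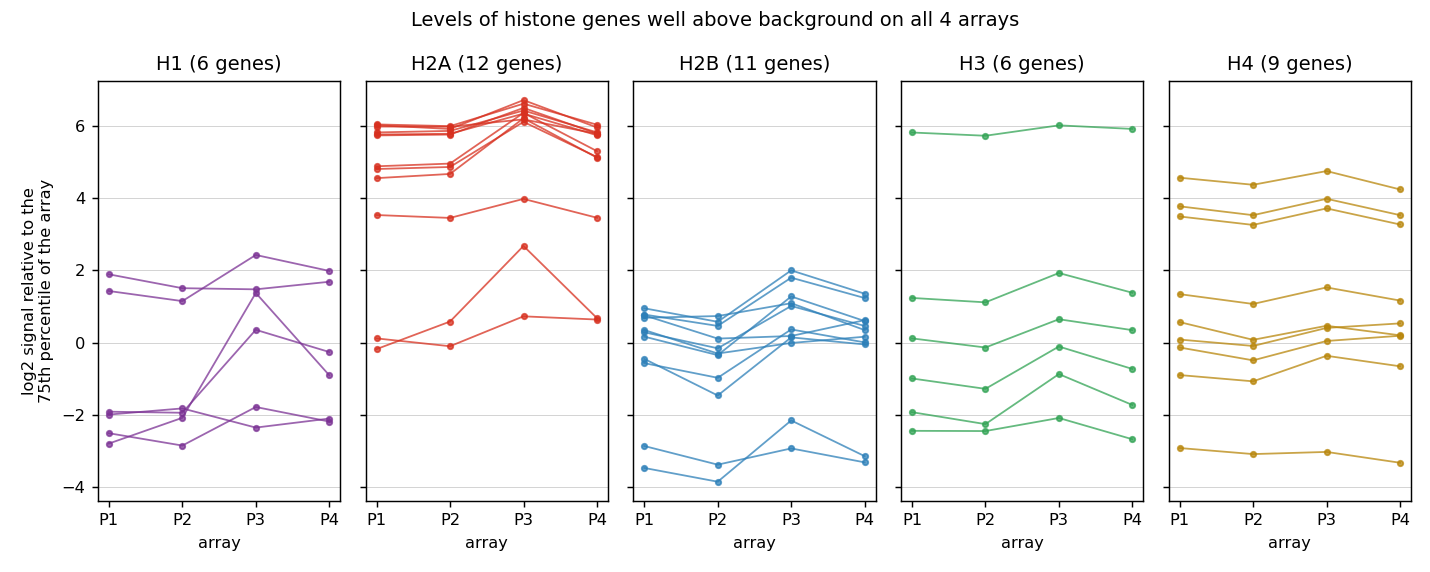
Levels (log2 signal relative to the 75th percentile of the array) of the 44 histone genes well above background on all 4 arrays, 1 panel per class and 1 line per gene, with arrays P1 to P4 along the x axis. Lines join the same gene and imply no order of the subsets; the 12 H2A lines all peak at P3, while the H4 lines are nearly flat.

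H2B genes were the class with the clearest low on P2. Of 11 genes above background on all arrays, 10 were lowest on P2, and the median P2 minus P1 difference was -0.44. P3 was highest for 8 of the 11, and 4 were at least 2-fold higher there than on P1. These were H2bc23, H2bc1, H2bc3 and H2bc14, with differences of 1.32, 1.11, 1.05 and 1.02. H2bc3 (Hist1h2bb) stood at 0.95, 0.58, 2.001 and 1.36 on P1 to P4, and H2bc14 at 0.78, 0.46, 1.80 and 1.24. Both have the order P3, P4, P1, P2. H2bc1, known as a testis H2B gene, stood at 0.17, -0.35, 1.28 and 0.60 in the same order, and H2B coding sequences are near-identical too. H2bu2 (Hist3h2ba) was the gene at least 2-fold lower on P2 than on P1, at -0.45, -1.46, 0.15 and -0.05.

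H2bc15, H2bc4 and H2bc7 were also higher on P3 than on P1, by 0.40, 0.73 and 0.93, with the P3 spot of H2bc7 in a locally bright area. H2bc21, H2bc18 and H2bc6 were not. H2bc21 (Hist2h2be) stood at 0.76, 0.11, 0.18 and 0.62, so that P2 and P3 were alike and both lower than P1 and P4. Its other probe gave 0.36, -0.21, -0.16 and 0.20, the same pattern, with its P2 spot in a locally bright area. H2bc18 (Hist2h2bb), of the same Hist2 cluster, stood at 0.35, -0.30, -0.01 and 0.16. H2bc6 stood at -2.86, -3.38, -2.93 and -3.32.

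Of 6 H3 genes above background on all arrays, all were highest on P3, with P3 minus P1 differences from 0.20 to 1.06, and 5 were lowest on P2. The exception was H3c7, lowest on P4, at -2.44, -2.45, -2.09 and -2.68. H3c11 (Hist1h3i) differed most, at -1.93, -2.26, -0.87 and -1.73 on P1 to P4. H3c1 stood at -0.99, -1.28, -0.11 and -0.73, H3c3 at 1.24, 1.12, 1.93 and 1.38, and H3c13 at 0.12, -0.14, 0.65 and 0.35. H3c4, at 5.82, 5.73, 6.02 and 5.92, spanned only 0.29, with its P3 spot in a locally bright area. On P4 these genes were within 0.26 of P1 in either direction.

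H4 genes differed least. The 9 genes were all above background on all arrays, none was 2-fold apart in any of the pairs P2, P3 or P4 against P1 or P4 against P3, and P3 minus P1 ran from -0.11 to 0.53 with a median of 0.19. P2 was lower than P1 for all 9, by 0.17 to 0.49, and for H4c8, H4c11 and H4c9 the difference was within spot noise. H4c12 stood at 3.78, 3.53, 3.98 and 3.53, H4c14 at 3.49, 3.26, 3.72 and 3.27, and H4f16 at 1.34, 1.07, 1.53 and 1.17. In these 3 the order was P3, P1, then P2 and P4 close together. H4c9 and H4c17 were instead highest on P4, by 0.13 and 0.14 over P3, which is within spot noise. H4 genes encode 1 and the same protein as a rule, and their probes can share targets.

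The small H4 differences could be set against repeated spots in H4c4 alone, whose probe kept 9 of 10 spots on each array after outlier flags. Its spots had a mean of 4.57 ± 0.037 (SD, 9 spots) on P1, 4.37 ± 0.036 on P2, 4.75 ± 0.027 on P3 and 4.24 ± 0.063 on P4. The spots of P3 (4.72 to 4.80) lay above all those of P1 (4.52 to 4.63), and those of P1 above all of P2 (4.33 to 4.45). The spots of P2 and P4 (4.15 to 4.38) overlapped. These are spots of 1 labelled sample and not replicates of a subset, and some of the spots lay in locally bright areas of P1 and P2. The other probe of H4c4 gave 2.33, 2.15, 2.72 and 2.26, with P3 highest and P2 lowest.

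**Figure D4:**
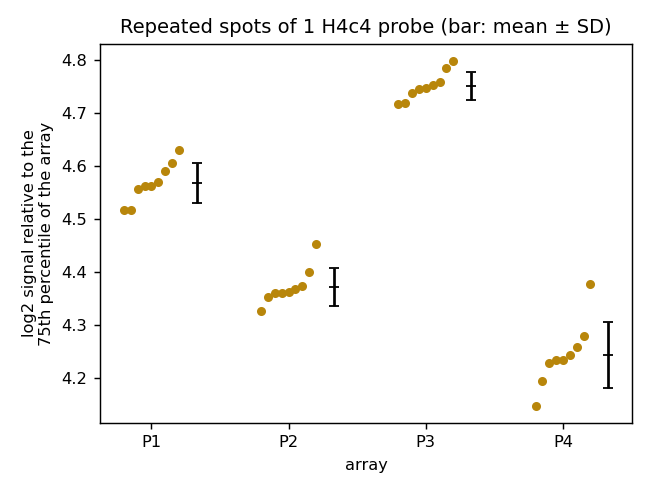
Level (log2 signal relative to the 75th percentile of the array) of each of 9 spots of 1 H4c4 probe on the 4 arrays, sorted by value within an array, with the mean ± SD of the spots beside them. The spots of P3 lie between 4.72 and 4.80 and those of P4 between 4.15 and 4.38, overlapping those of P2.

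Genes read by 2 probes were H2bc21, H2bc3, H4c4 and H4c12. The other probe of H4c12 was 0.09 higher on P4 than on P1 where the representative probe was 0.24 lower, so the sign of that small difference is unsettled. The other probe of H2bc3 was well above background on P3 alone.

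Members below background on some arrays gave bounds. H3c8 (Hist1h3g) was well above background on P3 alone, where it stood at -3.14, at least 2.88-fold above P1. H1f0, the linker variant of non-dividing cells, was above background on P3 alone, at -4.60 and next to the limit of detection, and gives no usable fold. H2bc22 was above background on P3 (-4.02) and P4 (-4.71). H2ac21 was above background on P1 alone, at -4.15, and at least 2.26-fold lower on P3. H1f7, a spermatid linker gene, stood at -2.19 on P1 and -5.03 on P3, a difference of -2.85, and was not well above background on P2 or P4. It was the 1 gene at least 2-fold lower on P3 than on P1 among those above background on both. H1f6, H1f10 and H2ac7 were not well above background on any array.

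P4 lay between P1 and P3 for 28 of the 44 genes above background on all arrays, against 54.7% of all such genes. It was nearer to P1 than to P3 for 33 of the 44, against 60.4%, and lower than P3 for 38, against 43.4%. Of the 45 above background on both arrays, 4 were at least 2-fold lower, against 6.25% of all such genes, and 0 higher, against 3.57%. The 4 were H1f5 (-2.28), H2ac4 (0.68 against 2.68), H2ac23 (-1.09) and H2ac11 (-1.06), and the median was -0.52, beside 0.05 over all genes. Counting genes above background on at least 1 of the 2 arrays gave 5 lower of 48, against 8.91%, and this became 9 after quantile normalization, 8 in the authors' value table and 2 without H2A genes. Against P2, 3 of 44 were at least 2-fold higher on P4, against 3.54%, and 0 lower, against 2.51%. With genes above background on at least 1 array the counts were 3 and 0 of 45, against 4.85% and 3.43%. The 3 genes were H1f3 (1.68), H2bu2 (1.42) and H1f5 (1.18). By class, the median P4 minus P1 difference was 0.44 for H1, 0.33 for H2B, 0.17 for H3, 0.03 for H2A and -0.22 for H4. The H1 median includes H1f8 (-0.11), which is not replication-dependent.

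Histone genes whose human counterparts are known for polyadenylated forms could be read for 4 of 5: H1f2, H2bc4, H2bc21 and H2aw. Their P3 minus P1 differences were -0.42, 0.73, -0.57 and 0.45, with a median of 0.02. All 4 were lower on P2 than on P1, by 0.08 to 0.64. None of them was 2-fold apart in any of the pairs P2, P3 or P4 against P1 or P4 against P3.

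Histone variants made outside S phase, which replace the S phase histones in chromatin through the cell's life, were set beside them from a list of 13, of which 4 are linker genes already counted above. Of 12 measured on P3 or P1, 1 was at least 2-fold higher on P3, against 12.4% of all genes, and 1 lower, against 7.11%. Their median was -0.02. The higher one was Cenpa, the centromere H3, at 0.55, 0.27, 1.72 and 0.75 on P1 to P4, and the lower one was H1f7. The H3.3 gene H3f3a was 0.50 lower on P3 than on P1 and its partner H3f3b 0.06 lower. The H2A.Z gene H2az1 was highest on P2, 0.57 above P1, the opposite end of the order from most S phase H2B and H4 genes, though its P1 and P3 spots lay in locally bright areas.

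Genes of DNA replication and mitosis differed between the same arrays. Of 39 measured S phase genes, 15 were at least 2-fold higher on P3 than on P1, against 12.4% of all genes, and 0 lower, with a median of 0.63. Tk1, the S phase thymidine kinase, was higher by 4.30 and Rrm2, a ribonucleotide reductase subunit, by 2.74. Of 22 mitosis genes above background on P3 or P1, 20 were at least 2-fold higher, with a median of 2.63, led by Mki67 at 4.17. Only 14 of the 22 were well above background on P1. The others, Cdk1, Aurkb, Bub1, Kif11, Kif2c, Tpx2, Nusap1 and Ttk, passed only through P3, so their differences are bounds. On P4 against P1, 3 of 39 and 6 of 18 were at least 2-fold higher, against 5.46% of all genes. The medians were 0.33 and 0.73, and the S phase share was near that of all genes. Among the 6 mitosis genes, Aurkb, Tpx2 and Nusap1 were not well above background on P1, so their differences are bounds.

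The cell cycle lists and the histone genes had medians of opposite sign on P2 against P1. On P2 against P1, 4 of 39 S phase genes and 8 of 19 mitosis genes were at least 2-fold higher, against 4.75% of all genes. In both lists 0 were lower, and the medians were 0.20 and 0.80. Among the 8 mitosis genes, Aurkb, Tpx2 and Nusap1 were not well above background on P1, so their differences are bounds. With genes above background on at least 1 of the 2 arrays, as in these lists, the histone median was -0.23. It was -0.21 over histone genes above background on both arrays, and the median over all genes was -0.06 with either filter. Over genes above background on all 4 arrays, the class medians were -0.44 for H2B, -0.23 for H4, -0.19 for H3 and -0.15 for H1. For H2A the median was 0.02, with 7 of 12 genes above 0. Tk1 and Mki67 were higher on P2 than on P1 by 1.96 and 1.80. H1f5 (0.71) and H2ac4 (0.76) were the histone genes that differed most in that direction. No test of this contrast between lists was made, since 1 array per subset allows none.

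**Figure D5:**
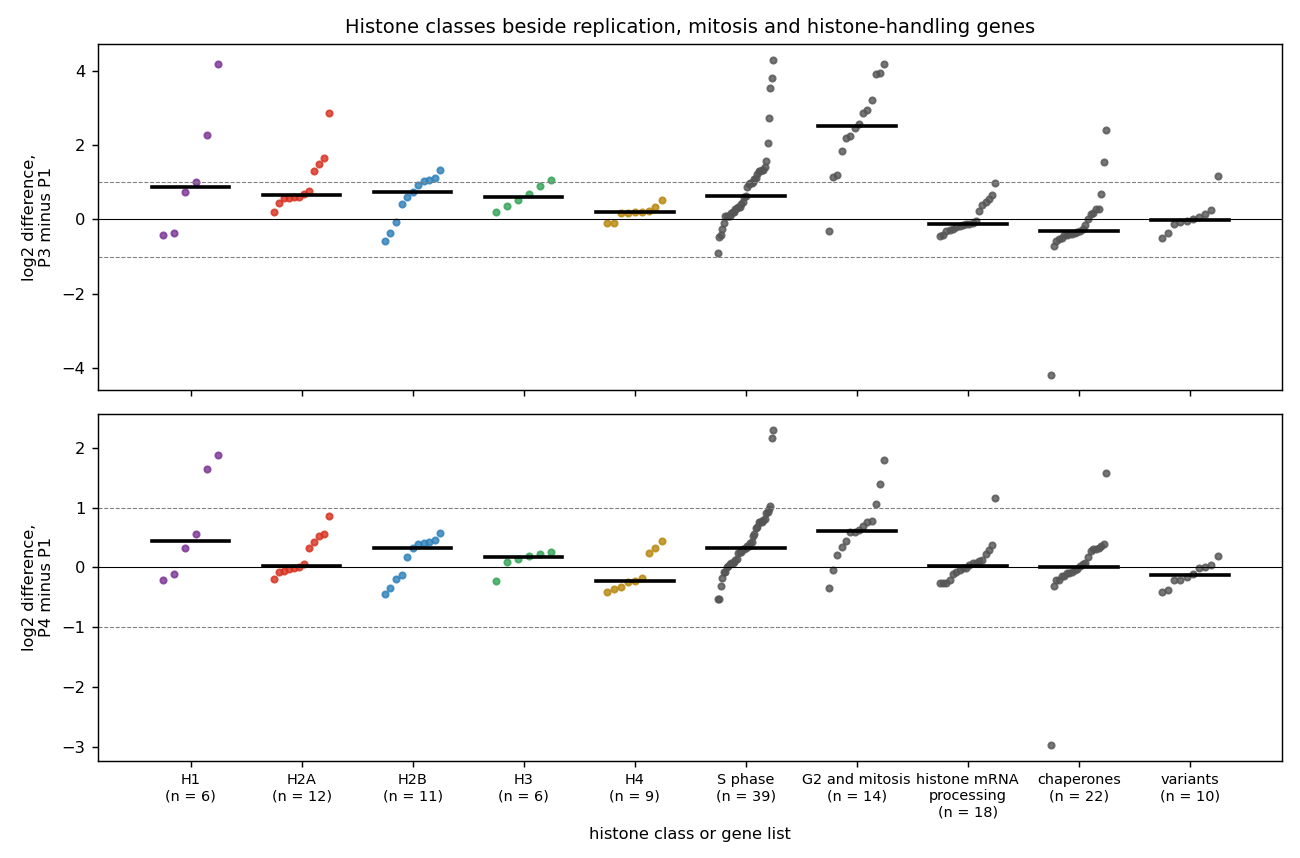
Log2 difference from P1 on the P3 array (top) and the P4 array (bottom) for the 5 histone classes and 5 gene lists, over genes well above background on all 4 arrays; each dot is 1 gene, sorted by value, black bars are medians and dashed lines mark 2-fold. H1f5 at 4.17 and Tk1 at 4.30 head their groups on P3, and the H4 dots lie between -0.11 and 0.53.

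Of 18 measured genes that make and trim histone mRNA, 0 were at least 2-fold higher or lower on P3 than on P1. Over all genes the shares were 12.4% higher and 7.11% lower. The median of the 18 was -0.13. Slbp, which encodes the protein that binds the stem-loop of histone mRNA, stood at 0.19, 0.53, 0.84 and 0.58 on P1 to P4. Npat, the coactivator of histone gene transcription, stood at -1.88, -1.89, -1.33 and -1.81. Zfp473, a zinc finger protein of the processing complex, was 1.17 higher on both P2 and P4 than on P1, and 0.97 on P3.

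Histone chaperones, which carry new histones to DNA, had a P3 minus P1 median of -0.33 over 22 measured genes. Of these, 2 were at least 2-fold higher, against 12.4% of all genes, and 1 lower, against 7.11%. The higher ones were Chaf1a, a subunit of the assembly factor that follows the replication fork, at -2.48, -1.12, -0.08 and -0.91, and Asf1b, its H3-H4 donor, at 0.83, 1.09, 2.37 and 1.19. The lower one was Hjurp, whose P1 spot lay in a locally bright area.

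Markers of other cells differed between the same arrays and are given for that reason. Of 10 markers of conventional dendritic cells, all 10 were well above background on P3, against 2 on P1, 6 on P2 and 6 on P4, and their summed signal was 169 times the 75th percentile of the array on P3 against 1.25, 6.03 and 5.82. On P3, 9 of the 10 were at least 2-fold higher than on P1, against 12.4% of all genes above background on P3 or P1. Xcr1, Clec9a, Cd209a and Clec10a were not well above background on P1, P2 or P4. All 6 plasma cell and plasmablast markers were above background on P3, against 3, 5 and 5 on P1, P2 and P4, with summed signals of 24.95, 14.6, 14.0 and 16.6 on P3, P1, P2 and P4. Of these 6, 3 were at least 2-fold higher on P3 than on P1, and Mzb1 was above background on P3 alone. Xbp1 carried most of each sum, at 3.87 on P3 and 3.67, 3.54 and 3.52 on P1, P2 and P4. Prdm1, at 2.46 on P3 against -1.16 on P1, gave the largest part of the P3 excess over P1. Which cells gave the Prdm1 signal was not tested. Of 7 B cell markers, 5 were above background on P3 against 2, 3 and 4, with summed signals of 7.96 against 5.57, 5.02 and 4.76, and Pax5 and Blk were below it everywhere. Of the 5 measured, 2 were at least 2-fold higher on P3 than on P1.

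Of 9 macrophage and monocyte markers, 8 were above background on P3 against 4, 6 and 6, and 6 of the 8 were at least 2-fold higher on P3 than on P1, with a median difference of 1.90. Their summed signals of 127 on P3 and 98.9, 235 and 45.1 on P1, P2 and P4 were carried by Ly6c2, which also marks memory CD8 T cells and stood at 6.63 on P3 and 6.59, 7.86 and 5.40 on the others. Fcgr1 was not well above background on any array. Plasmacytoid dendritic cell markers numbered 5 of 5 on P3 and 4 of 5 elsewhere, and 3 of the 5 (Tcf4, Ly6d and Klk1) were at least 2-fold higher on P3 than on P1, with a median difference of 3.64. Siglech was 1.25 lower on P3. It carried most of the summed signals of 60.8 to 68.0 on the other arrays. On P3, where the sum was 44.4, it gave the largest single part, at 4.34, followed by Bst2 at 3.94. Of 5 neutrophil markers 2 or 3 were above background per array, with a summed signal of 1.20 on P3 and at most 0.37 elsewhere. The 5 CD8 T cell markers with a probe were above background on every array, with summed signals of 609, 526, 460 and 521 on P1 to P4. The part of other cells in the P3 histone levels was not tested, and in bulk RNA a larger share of dividing cells and more histone RNA per cell cannot be told apart.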

How the data were processed

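Total RNA of 4 sorted CD8 T cell subsets was read on 4 Agilent arrays, 1 per subset. Per the file headers, the authors extracted spot intensity with Agilent Feature Extraction 11.0.1.1, which subtracts background and removes spatial trends but does not normalize between arrays. The deposited value table holds log2 signals of 26188 probes that are quantile normalised, as read from its columns, whose sorted values differ by at most 0.0006 and whose medians are all 8.85. It was set against the scanner values by correlation (at least 0.999 per array), which settled scale and direction and showed no centring; it served as an alternative.

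Outlier spots (122 to 152 per array) were left out and 0 were saturated. Probes were named by RefSeq accession (32994 of 56605, GRCm38.p6); coordinates are those of the promoter table. For pair counts, undetected values were set no lower than the array's dimmest detected probe. Locally bright areas are those where at least 2 (P1, P4), 3 (P2) or 4 (P3) spots within 32 position units of a given spot were well above background and 2-fold above their values on every other array. Members, lists, thresholds and the naming rule (the 4 highest means per class, the 5 largest differences each way, members above background on 1 array, and up to 4 largest differences per list and pair) were chosen with earlier results of these data known. Further members are given to complete a class, and not every list gene so chosen is named. Counting was tested on simulated data with known changes. Python 3.11.15, numpy 2.4.6, pandas 2.3.3, scipy 1.17.1, R 4.3.3 and limma 3.58.1 were used, the last for normexp (offset 50) on median signals.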

Additional observations from a re-analysis of the deposited data

How the results depend on the processing

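Each of 12 medians and counts, over genes above background on at least 1 array of the pair, was recomputed under 12 other settings, of which leaving out H2A genes was chosen after seeing the data. A median counted as moved past 0.11, the SD of a difference between spots, and a count past 1.5 times; by this 22 of 144 values moved and no median changed sign. The tolerance is wide for small medians: that of P4 minus P1 ran from 0.07 to 0.22 and that of P2 minus P1 from -0.29 to -0.13. Genes at least 2-fold higher on P3 than on P1 ran from 8 without H2A genes to 18 after quantile normalization, beside 12. The P3 minus P1 median of 0.58 was 0.75 in the authors' value table and 0.47 without H2A genes, and the P4 minus P1 median of 0.10 was 0.22 in the authors' value table. The median over all genes for P3 minus P1 was -0.11, and -0.001 in that table. Genes at least 2-fold lower on P2 than on P1 were 2, and 1 when arrays were scaled to their median, when counting genes above background on both arrays, after normexp, in the authors' value table and without H1f0, H1f7, H1f8 and H1f10. Those lower on P3 than on P1 were 2, and 1 above background on both arrays, after normexp, without those linker genes and without H2A genes, and 0 in the authors' value table. For P4 against P1, 2 were higher, and 1 without locally bright areas, which removes H1f5; 1 was lower, and 2 without filter or floor, and 0 above background on both arrays, in the authors' value table and without the linker genes. For P4 against P3, 0 were higher, and 1 with no filter and no floor; 5 were lower, and 9 after quantile normalization, 8 in the authors' value table and 2 without H2A genes. No paired analysis was possible because each subset has 1 array. Leaving out an array ends every comparison it enters. Signal over background limits the 8 genes not above background on every array, and 1 array per subset limits all.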
